A study of Mus musculus with 19 samples.

Results

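The transcripts of 9 carbonic anhydrase genes were followed in mouse colon and colon tumours: Car1, Car2, Car3, Car4, Car7, Car8, Car9, Car12 and Car13. They were taken by symbol from a table of 32694 genes, and the choice used no measured value. All mice were 12 weeks old, and each gave 1 library. Normal colon, wild-type in genotype, came from 3 females and 2 males. Apc tumours came from 3 females and 4 males in which Villin-Cre had deleted 1 Apc allele. The third group, called Apc/Tgif tumours after its label, came from 3 females and 4 males in which Villin-Cre had deleted 1 Apc allele together with both copies of Tgif1 and of Tgif2. Villin-Cre acts in the epithelium of the gut, so cells outside the epithelium keep these genes. Each tumour library was made from a single tumour, and both tumour groups carry the same Apc deletion.

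Carbonic anhydrases catalyse the reversible hydration of carbon dioxide to bicarbonate and a proton. In the colon these ions feed the apical exchangers that take up sodium and chloride, and some of the enzymes are known as products of mature absorptive cells. Car1, Car2, Car3, Car7 and Car13 are cytosolic enzymes. Car4 is anchored to the outer face of the membrane by a lipid, and Car9 and Car12 are membrane-spanning enzymes with an outer catalytic domain. Car9 is a classical target of the hypoxia-inducible factors. Car8 lacks catalytic activity and binds an inositol trisphosphate receptor.

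Library totals lay between 34417808 and 44732717 normalized counts. Tgif1, checked first as a targeted gene, had 2785 to 4965 normalized counts in Apc tumours and 251 to 654 in Apc/Tgif tumours. Tgif2 went the other way, with 476 to 764 and 2141 to 3107. Which exons were deleted is not stated in the labels, so these gene totals do not check the deletion, and every direction below for Apc/Tgif tumours rests on their label. Normal colon held more smooth muscle RNA than the tumours: the summed level of 12 smooth muscle genes was 207477 to 307800 there, 13500 to 23171 in Apc tumours and 10361 to 19290 in Apc/Tgif tumours. All 12 of these genes fell in both tumour groups, as did 25.2% of all genes in Apc tumours and 25.5% in Apc/Tgif tumours. Colon epithelium was present in each group, with summed levels of 16 pan-epithelial genes of 663985 to 839197, 391822 to 768802 and 453695 to 576755.

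Car13, Car1, Car3 and Car2 lie side by side on chromosome 3 (GRCm38, positions from GENCODE), in that order, with no other protein-coding gene between them. Car13 occupies 14641727 to 14663002 on the plus strand and Car1 occupies 14766216 to 14808368 on the minus strand. Car3, at 14863512 to 14872523, and Car2, at 14886273 to 14900770, both lie on the plus strand and are 13.7 kb apart. The whole cluster spans 259 kb. The remaining genes are scattered: Car8 (8143362 to 8239041) and Car9 (43506966 to 43513729) on chromosome 4, Car7 (104534689 to 104550343) on chromosome 8, Car12 (66713686 to 66766845) on chromosome 9 and Car4 (84957786 to 84966044) on chromosome 11.

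Promoter sequences from RefSeq (GRCm38) matched 4 of the 9 genes, and 3 are shown: Car4, Car9 and Car12. Car4 is the member with the largest fall in the tumours. Car9 and Car12 are membrane enzymes with their highest values in the same Apc tumours. Each run is the 250 bases before the RefSeq start, plus strand, at chr11:84957504-84957753, chr4:43506776-43507025 and chr9:66713436-66713685. The GENCODE start of Car9 lies 60 bases upstream of the RefSeq start, and that of Car4 lies 32 bases downstream. Capitals mark matches on either strand to ACGTG or GCGTG (the core bound by hypoxia-inducible factors), TGTCA (the core bound by TGIF proteins) and CTTTGA (a core bound by TCF factors). No match overlapped another.
Car4: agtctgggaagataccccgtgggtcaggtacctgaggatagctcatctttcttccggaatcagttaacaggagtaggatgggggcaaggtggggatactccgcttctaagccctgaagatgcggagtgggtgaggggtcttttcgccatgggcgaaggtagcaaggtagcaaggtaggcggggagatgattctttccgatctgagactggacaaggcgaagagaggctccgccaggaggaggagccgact
Car9: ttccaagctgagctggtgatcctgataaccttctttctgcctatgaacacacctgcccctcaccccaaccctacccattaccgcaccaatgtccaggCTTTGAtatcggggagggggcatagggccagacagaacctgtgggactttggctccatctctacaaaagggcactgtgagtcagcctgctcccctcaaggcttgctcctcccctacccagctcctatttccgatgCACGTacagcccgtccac
Car12: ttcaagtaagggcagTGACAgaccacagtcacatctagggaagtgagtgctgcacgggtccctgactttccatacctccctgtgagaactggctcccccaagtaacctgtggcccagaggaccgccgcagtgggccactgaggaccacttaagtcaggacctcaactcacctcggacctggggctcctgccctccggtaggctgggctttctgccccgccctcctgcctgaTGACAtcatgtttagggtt
The Car9 run holds 1 match to ACGTG, whose first base lies 18 bases before the start, and 1 to CTTTGA at 153 bases. The Car12 run holds 2 matches to TGTCA, at 235 and 19 bases before the start, and the Car4 run holds none of the 4 motifs. Among 32851 promoter windows of the same length, 16.6% held ACGTG, 28.2% GCGTG, 40.0% TGTCA and 13.8% CTTTGA, so such matches are common. They describe the letters only.

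Levels of different genes were compared as normalized counts per kilobase of the longest coding transcript. On this scale normal colon was dominated by 3 members. Car4 had 48697 ± 7979 (SD, n = 5), Car1 26003 ± 11344.5 and Car2 23505 ± 4202. The ranges of Car1 and Car2 overlapped, and so did those of Car4 and Car1 (36574 to 56223 and 16378 to 45707). Car9 followed with 1159 ± 101.2, Car3 with 995 ± 1292, Car13 with 459 ± 16.0, Car12 with 103 ± 25.8, Car8 with 65.8 ± 14.3 and Car7 with 18.6 ± 5.11. The spread of Car3 covered the levels of Car9, Car13, Car12, Car8 and Car7, so its place in this order is not fixed.

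The make-up of the family differed between the groups. Car4 supplied 48.5% ± 9.22 of the summed level per kilobase in normal colon (SD, n = 5). Its share was 8.53% ± 4.53 in Apc tumours (SD, n = 7) and 1.90% ± 1.83 in Apc/Tgif tumours (SD, n = 7). Car1 was the most abundant member in Apc tumours, with 52.7% ± 7.42. In Apc/Tgif tumours Car2 supplied 56.9% ± 20.7 and Car1 35.2% ± 23.6, with Car2 ranging from 24.5% to 83.2% between tumours. By mean level per kilobase Car1 came first there, with 6813 ± 8514 against 6672 ± 938 for Car2 (SD, n = 7), and Car1 was highest in replicate 4. The summed level of all 9 genes per kilobase was 101005 ± 7541 in normal colon, 18505 ± 9864 in Apc tumours and 14393 ± 9406 in Apc/Tgif tumours. A low level in bulk tissue can reflect fewer cells of a type or less RNA per cell, and these cannot be told apart here.

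**Figure D1:**
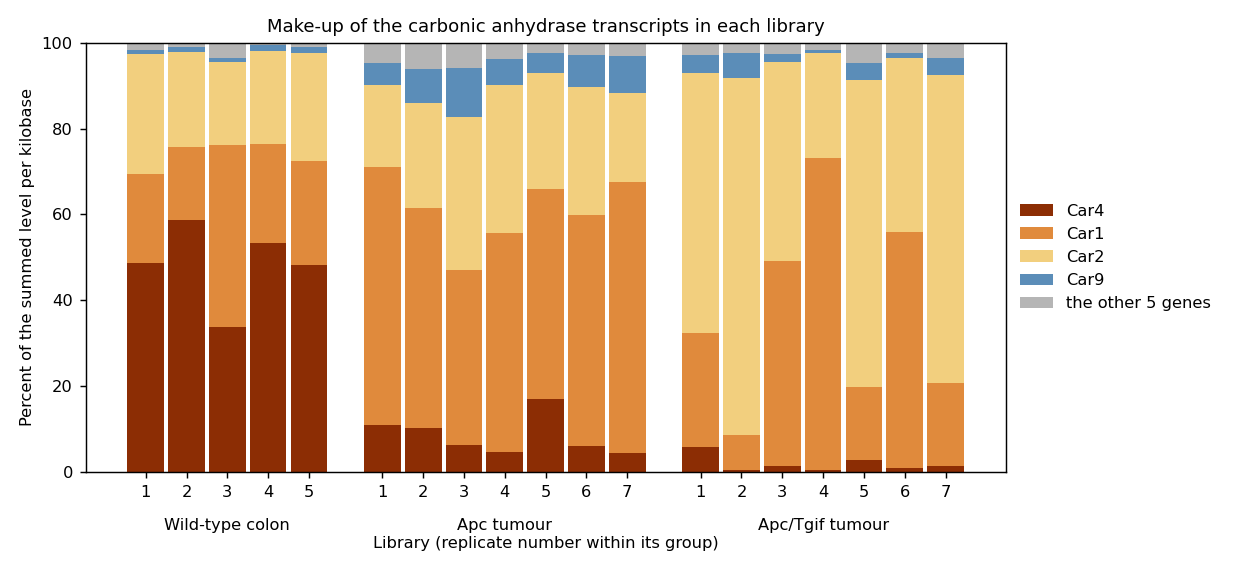
Share of the summed carbonic anhydrase level per kilobase of transcript (y axis, percent) in each of the 19 libraries (x axis, by group); each bar is 1 library and the colours are Car4, Car1, Car2, Car9 and the other 5 genes together. Car4 makes up 33.9% to 58.6% of the wild-type bars, 4.51% to 17.0% of the Apc tumour bars and 0.539% to 5.69% of the Apc/Tgif tumour bars.

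All 9 genes passed the filter on low values. In Apc tumours 5 of the 9 fell relative to normal colon and none rose: Car1, Car2, Car3, Car4 and Car7. The median log2 fold change was -1.59, against -0.01 for all 18445 genes tested. Among all genes, 25.2% were called lower and 23.9% higher (limma adjusted p under 0.05). In Apc/Tgif tumours 7 of the 9 fell and none rose, the exceptions being Car7 and Car12, with a median of -1.90 against a median of all genes within 0.01 of 0. The background there was 25.5% lower and 24.8% higher. The 5 wild-type libraries serve both of these comparisons. Between the tumour genotypes 3 of the 9, Car4, Car8 and Car9, were lower in Apc/Tgif tumours and none was higher, against backgrounds of 8.76% and 7.88%. The median there was -1.24, against -0.01 for all genes. By the ranges alone, 2 members (Car2 and Car4) lay below normal colon in every Apc tumour, as did 15.4% of all genes. The same held in Apc/Tgif tumours for 5 members (Car2, Car4, Car8, Car9 and Car13) and 16.5% of all genes. Between the tumours 1 member (Car9) and 1.77% of all genes were lower without overlap.

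**Figure D2:**
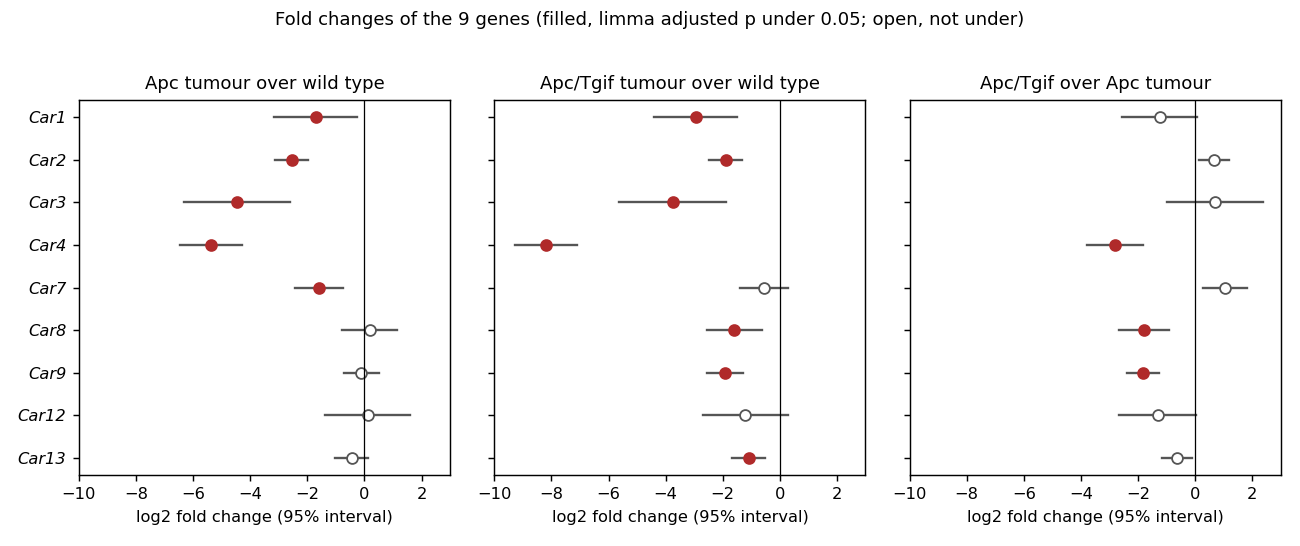
Fold changes of the 9 genes (x axis, log2, with 95% intervals as lines) in the 3 comparisons; filled points have a limma adjusted p under 0.05. Filled points lie at 5, 7 and 3 genes, all below 0, and the Car4 point lies lowest in each panel.

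With library totals made equal, the median of all genes moved to 0.19 in Apc tumours and 0.15 in Apc/Tgif tumours over normal colon, and the share of all called genes that were lower went from 51.2% to 35.7% and from 50.7% to 39.8%. Between the tumours that share went from 52.6% to 63.1%. With values scaled to the pan-epithelial genes it was 80.9%, 71.8% and 31.1% in the 3 comparisons, and the medians of all genes were -0.42, -0.26 and 0.14. The direction of every called member was the same under each scaling.

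**Figure D3:**
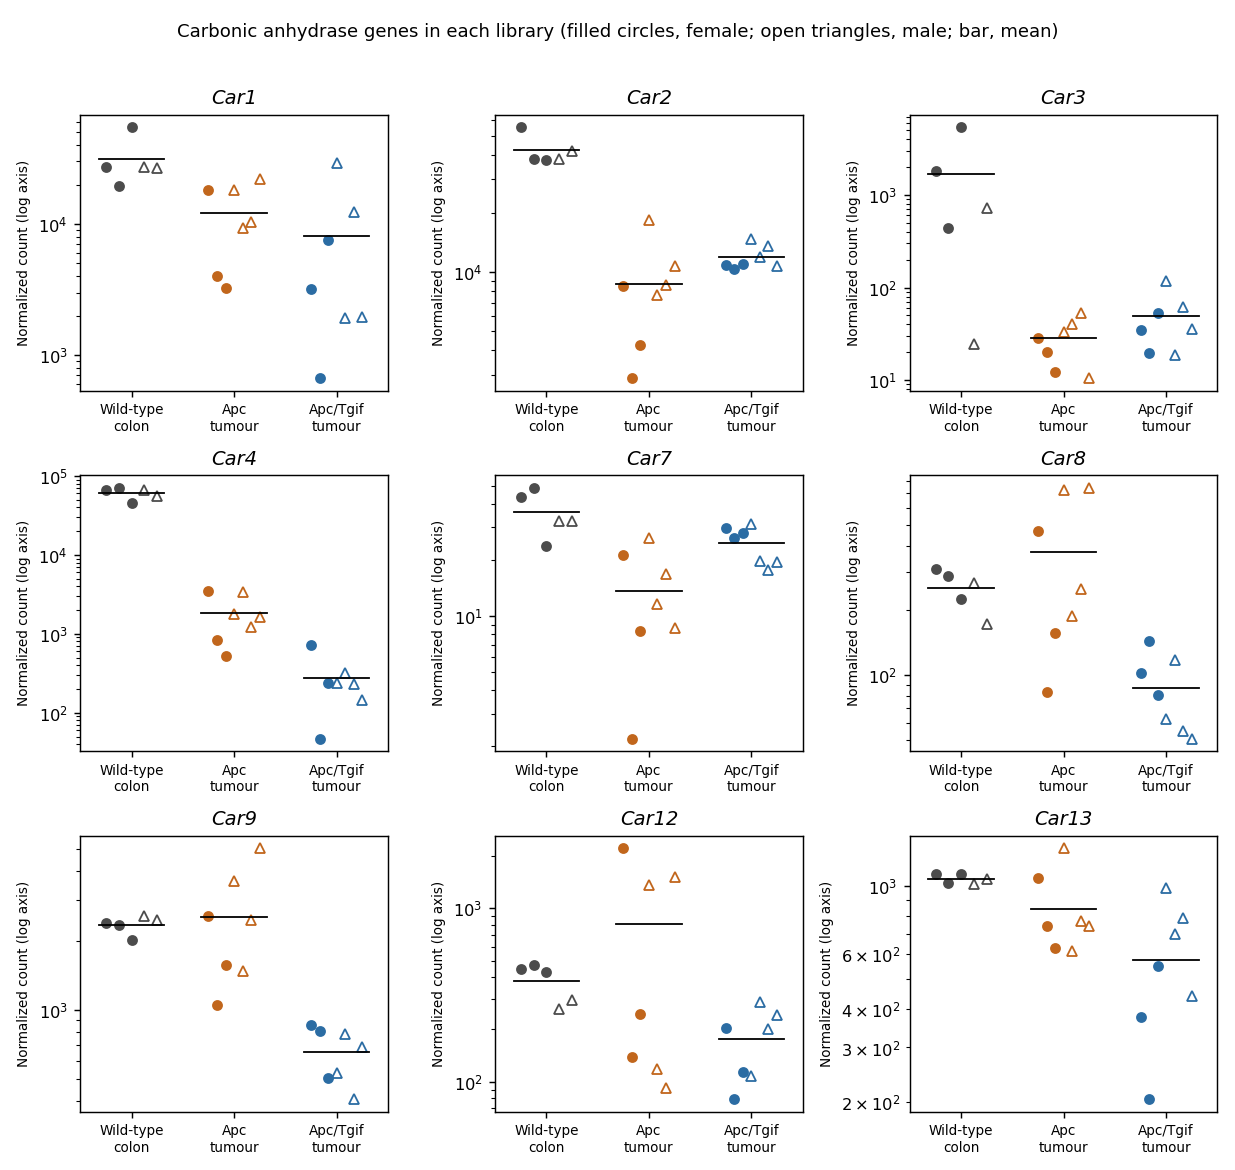
Normalized counts (y axis, log scale) of the 9 genes in normal colon, Apc tumours and Apc/Tgif tumours; each point is 1 library and the bar is the mean. Car4 separates the wild-type libraries (45937 and above) from every tumour (3448 and below), and Car9 separates the tumour genotypes (1052 and above in Apc tumours, 860 and below in Apc/Tgif tumours).

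Among the membrane enzymes, Car4 fell most. The wild-type libraries had 67209, 70617, 45937, 65711 and 56341 normalized counts of Car4. Apc tumours had 531 at the lowest, a median of 1656 and 3448 at the highest, and Apc/Tgif tumours had 47.0, 237 and 720. No tumour came near a wild-type library, and the tumour groups overlapped only between 531 and 720. Car4 fell by 5.37 on the log2 scale in Apc tumours (SE 0.52, limma adjusted p = 1.15e-07), or 41.3-fold. In Apc/Tgif tumours it fell by 8.18 (SE 0.52, adjusted p = 3.5e-10), or 291-fold. Relative to Apc tumours it fell by 2.82 (SE 0.47, adjusted p = 0.000433), which is 7.04-fold, and this call was lost in females alone (adjusted p = 0.0751).

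Car9 separated the tumour genotypes. It had 2394, 2330, 2008, 2549 and 2445 normalized counts in normal colon, a narrow range. Apc tumours spread on both sides of it, from 1052 through a median of 2465 to 5034. Every Apc/Tgif tumour lay below every other library, with 408 at the lowest, a median of 687 and 860 at the highest. Car9 fell by 1.93 in Apc/Tgif tumours over normal colon (SE 0.30, limma adjusted p = 2.11e-05) and by 1.82 relative to Apc tumours (SE 0.27, adjusted p = 0.00015), a 3.53-fold difference. Among all genes, 1.77% had tumour groups that did not overlap in this direction. In Apc tumours the log2 fold change over normal colon was -0.11 (95% interval -0.72 to 0.51, adjusted p = 0.791).

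Car12 varied most between Apc tumours among the 9 genes. Apc tumours of replicates 1, 4 and 7 had 2220, 1359 and 1511 normalized counts, and those of replicates 2, 3, 5 and 6 had 138, 245, 119 and 91.4. Normal colon had 448, 473, 431, 262 and 295, between these sets. Apc/Tgif tumours lay between 79.2 and 288 with a median of 202, overlapping the low Apc tumours. None of the 3 comparisons passed for Car12: the log2 fold change was 0.11 in Apc tumours over normal colon (SE 0.71, limma adjusted p = 0.913), -1.21 in Apc/Tgif tumours (SE 0.71, adjusted p = 0.169) and -1.31 between the tumours (SE 0.64, 95% interval -2.66 to 0.04, adjusted p = 0.185). The fall in Apc/Tgif tumours passed in a fit of those 2 groups alone (-1.22, adjusted p = 0.00654) and with the distal colon genes as a covariate (-2.15, adjusted p = 0.004).

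The inactive relative Car8 followed the same tumours. It had 310, 290.01, 226, 269 and 172 normalized counts in normal colon. Apc tumours of replicates 1, 4 and 7 had 468, 722 and 741, and the other four had 83.2, 157, 187 and 252. Apc/Tgif tumours lay between 50.7 and 144 with a median of 81.2, below all wild-type libraries. Car8 fell by 1.60 relative to normal colon (SE 0.46, limma adjusted p = 0.00675) and by 1.79 relative to Apc tumours (SE 0.42, adjusted p = 0.00574), a 3.46-fold difference. The second call was lost in females alone (log2 fold change -0.78, adjusted p = 0.299), and the first was as well (-1.36, adjusted p = 0.0622).

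The Apc tumours highest in Car8, Car9 and Car12 were those low in Hoxb13. This homeobox gene of the distal colon was picked out after its values were seen. Car9 did not split clearly: replicates 1, 4 and 7 had 2562, 3623 and 5034 normalized counts. Replicates 2, 3, 5 and 6 had 1052, 1561, 1479 and 2465. Hoxb13 had 1542, 1088 and 1279 normalized counts in replicates 1, 4 and 7 and between 5271 and 9351 in the other four. Other genes of the distal colon list did not all split these tumours the same way. Hoxa11 went the opposite way, with 1404, 1337 and 1710 against 252 to 404. Hoxd13 was low in replicates 1, 4 and 7 (37.9, 11.6 and 2.42) and also in replicate 3 (7.68), against 6670 to 10231 in replicates 2, 5 and 6. It ranged from 17.7 to 11355 in Apc/Tgif tumours, with a median of 239. Apc/Tgif tumours had 6540 to 8720 of Hoxb13 and normal colon 13466 to 16616. The summed level of the 7 measured genes of the distal colon list was 21109 to 25208 in normal colon, 3173 to 22852 in Apc tumours and 8533 to 24447 in Apc/Tgif tumours, with Hoxc10 at 0 in every Apc/Tgif library. With Hoxb13 as a covariate, an alternative chosen after seeing the data, the Car9 difference between the tumours was -1.19 (adjusted p = 0.022), that of Car8 was -0.96 (adjusted p = 0.113) and that of Car12 was 0.31 (adjusted p = 0.672). With the planned covariate, the distal colon list, Car8 and Car9 kept their calls between the tumours, and Car12 passed neither with nor without it. That covariate is a mean over genes that split the Apc tumours in different ways, so it need not follow Hoxb13. Car8 lost its call between the tumours in 2 of 34 alternatives, Hoxb13 as a covariate and females alone. The site of each tumour along the colon is not given in the labels, and its part in these differences was not tested.

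**Figure D4:**
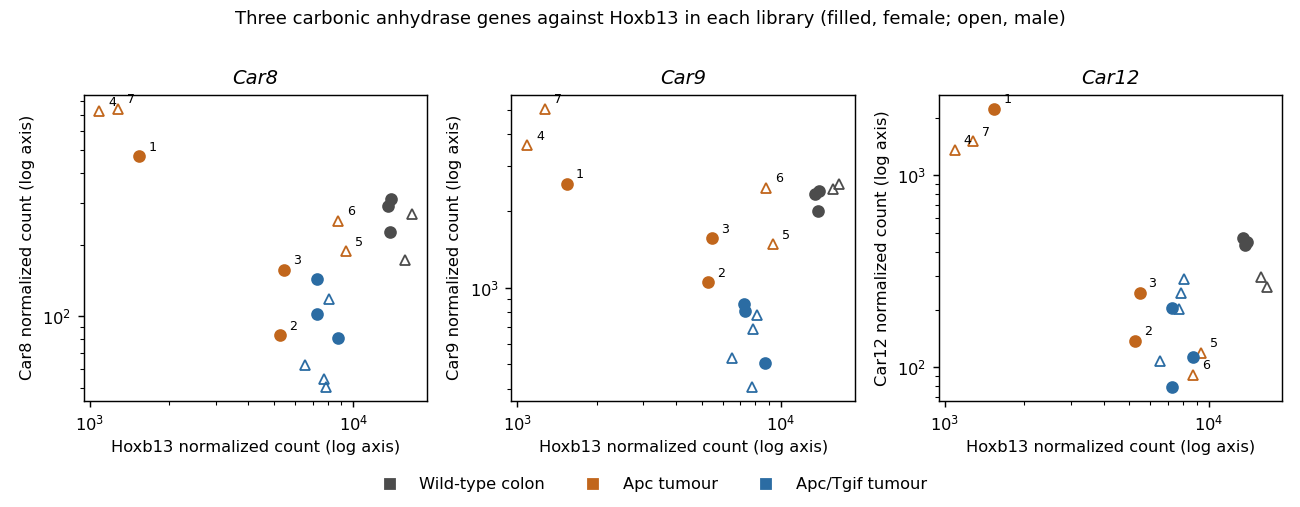
Normalized counts of Car8, Car9 and Car12 (y axes, log scale) against those of Hoxb13 (x axes, log scale) in each library; numbers mark the replicates of the Apc tumours. Apc tumours 1, 4 and 7 stand apart at 1088 to 1542 Hoxb13 counts and hold the highest values of all 3 genes. For Car9, tumour 1 (2562) lies close to tumour 6 (2465).

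Among the cytosolic enzymes, Car2 fell in both tumour groups. It had 55068, 37895, 37301, 37985 and 41889 normalized counts in normal colon. Apc tumours ran from 2875 through a median of 8551 to 18466, and Apc/Tgif tumours from 10336 through 11048 to 14770. The tumours lay below all wild-type libraries, and the Apc/Tgif tumours were tightly grouped inside the wide range of the Apc tumours. Car2 fell by 2.55 in Apc tumours (SE 0.28, limma adjusted p = 4.3e-07) and by 1.90 in Apc/Tgif tumours (SE 0.28, adjusted p = 1.1e-05). Between the tumours the log2 fold change of 0.65 did not pass (SE 0.25, 95% interval 0.13 to 1.17, adjusted p = 0.0824). It passed in 5 of 34 alternatives, among them females alone (1.19, adjusted p = 0.0304) and without Apc tumour replicate 4 (0.84, adjusted p = 0.013).

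Car1 kept a high level in some tumours of both genotypes. Normal colon had 27124, 19555, 54574, 27102 and 26882 normalized counts. Apc tumours ran from 3246 through 10429.6 to 22042, and Apc/Tgif tumours from 667 through 3200.1 to 29223. The widest range lay in Apc/Tgif tumours, where the highest tumour had 43.8 times the level of the lowest, and both tumour groups overlapped normal colon. Car1 fell in Apc/Tgif tumours (log2 fold change -2.95, SE 0.69, limma adjusted p = 0.00154), a call lost in males alone (-2.15, adjusted p = 0.109). The difference in Apc tumours, -1.71 (SE 0.69, adjusted p = 0.0482), lay at the threshold and missed it in 19 of 33 alternatives, 11 of which left out a single library. Those libraries were any of the 5 wild-type ones, Apc tumour replicates 2, 3, 5 and 6 and Apc/Tgif tumour replicates 1 and 6, with values from -1.41 to -1.91. Between the tumours the difference was -1.24 (adjusted p = 0.2).

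Car13, the cytosolic enzyme at the left end of the cluster, was steady in normal tissue and lower in Apc/Tgif tumours. Wild-type values were 1094, 1023, 1092, 1016 and 1053 normalized counts. Apc tumours ran from 614 through 743 to 1322 and Apc/Tgif tumours from 204 through 549 to 987, the latter all below normal colon. Car13 fell by 1.09 in Apc/Tgif tumours (SE 0.27, limma adjusted p = 0.00268), a call lost in males alone (-0.56, adjusted p = 0.199). The difference in Apc tumours was -0.44 (adjusted p = 0.19), and that between the tumours was -0.64 (95% interval -1.16 to -0.12, adjusted p = 0.0854). The last value passed in females alone (-1.18, adjusted p = 0.0283) and without Apc/Tgif tumour replicate 4 (-0.78, adjusted p = 0.0378).

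Car7 was the rarest member. It had 43.4, 48.8, 23.7, 32.4 and 32.4 normalized counts in normal colon, 2.20 to 26.3 with a median of 11.6 in Apc tumours, and 17.7 to 31.1 with a median of 26.2 in Apc/Tgif tumours. Only 4 of the 7 Apc tumours reached 10 normalized counts, so few reads stand behind these values. Car7 fell by 1.59 in Apc tumours (SE 0.41, limma adjusted p = 0.00317), a call lost in males alone (-1.10, adjusted p = 0.08). In Apc/Tgif tumours the difference from normal colon was -0.55 (adjusted p = 0.277), and between the tumours it was 1.04 (SE 0.37, 95% interval 0.27 to 1.81, adjusted p = 0.0598). The last value passed in 5 of 33 alternatives, among them quantile normalization (1.19, adjusted p = 0.0349) and leaving out Apc tumour replicate 1 or 4 (1.21 and 1.24).

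Car3, an enzyme best known from fat and slow muscle, had the widest spread in normal colon. The 5 libraries had 1801, 441, 5367, 24.3 and 718 normalized counts, a 221-fold range. Apc tumours had 10.51 to 52.5 and Apc/Tgif tumours 18.9 to 119, so that wild-type replicate 4 lay within both tumour groups and the other wild-type libraries above them. Car3 fell in Apc tumours (log2 fold change -4.46, SE 0.89, limma adjusted p = 0.000392) and in Apc/Tgif tumours (-3.76, SE 0.89, adjusted p = 0.00162). Both calls were lost in males alone, where the values were -2.14 (adjusted p = 0.189) and -1.48 (adjusted p = 0.338). Between the tumours the log2 fold change was 0.71 (adjusted p = 0.617).

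Fat markers moved with Car3 among the wild-type libraries. Adipoq, a hormone of fat cells, had 269, 76.5, 833, 1.44 and 104 normalized counts in wild-type replicates 1 to 5 and at most 1.71 in any tumour. Cfd, an adipocyte complement factor, had 1106, 210.2, 2564, 5.75 and 594. Both genes and Car3 were highest in replicate 3 and lowest in replicate 4. The summed level of the 10 adipocyte genes was 5722 to 16150.3 in normal colon, 1058 to 2651 in Apc tumours and 1131 to 2740 in Apc/Tgif tumours. It was above every tumour also in wild-type replicate 4, where Adipoq was 1.44 and Cfd 5.75. Pck1, a gene of this list, had means of 4298 in normal colon, 483 in Apc tumours and 169 in Apc/Tgif tumours. The sum is therefore no measure of fat cells alone. Lep was at 0 in every tumour. The 6 genes of the list that passed the filter, Pck1 among them, fell in both tumour groups, against 25.2% and 25.5% of all genes. Cfd passed the filter through 4 normal libraries and 1 tumour. Skeletal muscle genes summed to 443 to 949, 196 to 502 and 604 to 1322, with Myh4 at 0 in every Apc/Tgif tumour. In wild-type replicate 4, where Adipoq was at 1.44, Car3 was no higher than in the tumours; the part of fat cells in the group difference was not tested.

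**Figure D5:**
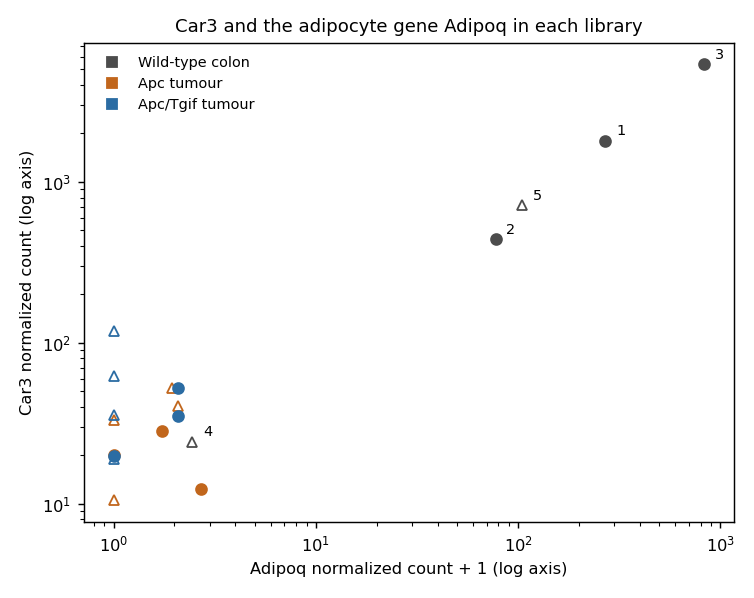
Car3 normalized counts (y axis, log scale) against Adipoq normalized counts plus 1 (x axis, log scale) in each library; numbers mark the wild-type replicates. Wild-type replicates 1, 2, 3 and 5 lie at 76.5 Adipoq counts and above with 441 to 5367 of Car3, and wild-type replicate 4 lies among the tumours.

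The genes also differed in how they varied among tumours of the same genotype. Pearson's r of log2 values was computed for the 36 pairs of members in each tumour group, 72 relations in all (n = 7 tumours each). None passed an exact permutation test after adjustment (smallest adjusted p = 0.075, two-sided), and 13 had an unadjusted exact p under 0.05. The 2 farthest tumours named below are those farthest from the median of the lower-numbered gene of the pair, whatever the other gene's values. Car1 and Car3, neighbours on chromosome 3, had r = 0.95 in Apc/Tgif tumours (rho 0.93, exact permutation p = 0.00258 and 0.00675, adjusted p = 0.075 and 0.0971), and r = 0.88 without the 2 farthest tumours. Car3 lay between 18.9 and 119 normalized counts in these tumours, and Adipoq was at most 1.09. In Apc tumours Car1 and Car3 had r = 0.20 (rho -0.04, exact permutation p = 0.653 and 0.963), and r = -0.80 without the 2 farthest tumours. Car2 and Car13 had r = 0.87 in Apc/Tgif tumours (rho 0.96, exact permutation p = 0.00893 and 0.00278, adjusted p = 0.114 and 0.0667). In Apc tumours that pair had r = 0.64 (rho 0.54, exact permutation p = 0.127 and 0.236). The values of Car12 in Apc tumours fell into 2 sets, so no r of Car12 is given for that group. Its pairs are among the 72 relations counted. Car8 was highest in the same replicates, 1, 4 and 7, but its values were graded. In Apc tumours it had r = 0.96 with Car9 (exact permutation p = 0.00198). With Car1 and Car2 it had r = 0.91 each (exact permutation p = 0.00417 and 0.00317). The adjusted p of each was 0.075. Without the 2 farthest tumours r was 0.93 with Car9 (farthest in Car8), 0.97 with Car1 (farthest in Car1) and 0.79 with Car2 (farthest in Car2).

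Genes most like each member over the 14 tumours were found by Pearson's r of log2 values less the mean of the genotype, among 12238 genes, and are given as a description. For Car4 these were Fcgbp (r = 0.91), a mucus component of goblet cells, and Slc26a3 (r = 0.89), the chloride and bicarbonate exchanger of colonocytes. Car1 was most like Ccdc68 (0.95) and Apol7a (0.94), and Car2 was most like Syt16 (0.93) and Baiap2l1 (0.92). Car9 came with Mira (0.92) and Gucy2c (0.91), the receptor of guanylin. For Car13 they were Sh3bgrl2 (0.95) and Rap1gds1 (0.93), for Car3 Lrba (0.91) and Esrp1 (0.90) and for Car7 Cacna1d (0.85) and Lax1 (0.84). For Car8 they were Slc25a13 (0.96), a mitochondrial aspartate and glutamate carrier, and Mira (0.94). Over the 7 Apc/Tgif tumours r with Car8 was 0.90 for both of them. For Car12, Sptssb and Hoxa10 were chosen in the same way. Because the Apc tumours fell into 2 sets in Car12, its r is given over the 7 Apc/Tgif tumours only. There it was 0.81 for both genes. Such maxima out of many genes are high by selection.

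Of 9 further genes with a carbonic anhydrase domain, 7 were high enough to test, and Car6 and Car10 were not. In Apc tumours 2 rose and 3 fell relative to normal colon, with a median of -0.21. Among all genes 23.9% rose and 25.2% fell, and counts out of 7 genes do not stand out from these shares. Ptprz1 and Ptprg, receptor phosphatases with an inactive carbonic anhydrase domain, rose by 2.98 and 0.78 on the log2 scale (limma adjusted p = 4.4e-06 and 0.001). Car11, an inactive relative, fell by 2.11 (adjusted p = 2.01e-05), Car14, a membrane-spanning enzyme, by 3.42 (adjusted p = 0.000104) and Car15 by 1.31 (adjusted p = 0.00241). Car14 reached 10 normalized counts in 5 of 5 normal libraries, 0 of 7 Apc tumours and 1 of 7 Apc/Tgif tumours. It thus passed the filter through the group in which it was high and had to differ, yet it is counted as fallen in both comparisons with normal colon. Again 2 rose and 3 fell in Apc/Tgif tumours, with a median of -0.57, against 24.8% and 25.5% of all genes. Ptprz1 and Ptprg rose by 3.14 and 0.46, while Car11, Car14 and Car5b, a mitochondrial enzyme, fell by 2.37, 2.42 and 0.83 (limma adjusted p between 1.79e-06 and 0.0326). None of the 7 passed between the tumours in limma, where the smallest adjusted p was 0.0948, and 2 of them, Car15 and Car5b, had an unadjusted p under 0.05.

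Genes of bicarbonate and proton transport were the closest partners examined. The list is broad and also holds butyrate transporters and genes that are not transporters, such as scaffolds. Of its 27 genes 26 were tested. In Apc tumours 15 fell and 5 rose (median -0.78), and in Apc/Tgif tumours 16 fell and 4 rose (median -0.92). Among all genes 25.2% fell and 23.9% rose in Apc tumours, and 25.5% fell and 24.8% rose in Apc/Tgif tumours. Slc26a3 went from 62569 ± 19281 normalized counts in normal colon (SD, n = 5) down to 2220 ± 1333 in Apc tumours and 175 ± 151 in Apc/Tgif tumours (SD, n = 7 each). Slc16a1, a lactate and butyrate transporter, fell by 1.70 in Apc tumours and by 2.64 in Apc/Tgif tumours (limma adjusted p = 1.3e-07 and 2.95e-10). Slc9a3r1, a scaffold of apical transporters, fell by 1.70 in Apc tumours (adjusted p = 1.59e-08), and Slc5a8, a butyrate transporter, fell by 4.47 in Apc/Tgif tumours (adjusted p = 1.17e-08).

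A few transporters of this list rose over normal colon, no larger a share than among all genes. Slc9a4, a sodium and proton exchanger, rose by 7.75 in Apc tumours and by 8.86 in Apc/Tgif tumours (limma adjusted p = 3.65e-13 and 3e-14), from 1.57 ± 1.23 normalized counts in normal colon to 492 ± 106 and 1082 ± 301. It passed the filter through the tumours alone. Slc4a11, a transporter of the bicarbonate transporter family, rose by 4.19 in Apc tumours (adjusted p = 2.07e-08). Between the tumours 8 of the 26 fell and 1 rose (median -0.65), against 8.76% and 7.88% of all genes. Slc26a3 fell by 3.64, Slc4a11 by 1.87, Slc4a3, an anion exchanger, by 1.23 and Slc16a1 by 0.94 (adjusted p between 0.000196 and 0.000584).

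Hypoxia response genes were examined because Car9 and Car12 are known to respond to low oxygen. In Apc tumours 10 of 20 rose and 1 fell relative to normal colon (median 0.47), against 23.9% and 25.2% of all genes. Ddit4, P4ha2 and Pfkfb3 rose by 1.84, 1.32 and 1.40, and Pfkfb4 fell by 1.61 (limma adjusted p between 1.63e-07 and 7.56e-05). Of the same 20 genes, 4 rose and 6 fell in Apc/Tgif tumours (median 0.03), near the 24.8% and 25.5% of all genes. Ddit4 and P4ha2 were higher there by 2.11 and 0.97, and Pfkfb4 and Higd1a lower by 1.64 and 1.49 (log2 fold changes -1.64 and -1.49). Between the tumours 8 of 20 fell and none rose (median -0.45), against 8.76% and 7.88% of all genes. Slc2a1, the glucose transporter, fell by 1.28, Ero1l by 0.88, Higd1a by 1.08 and Bnip3, a mitophagy receptor, by 1.49 (adjusted p between 0.000188 and 0.00639). Car9 fell in the same comparison, and the part of oxygen supply in that fall was not tested.

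More colonocyte markers fell than rose in all 3 comparisons. Of 18 tested absorptive colonocyte genes, which hold no member and share Slc26a3 with the transporters, 12 fell and 3 rose in Apc tumours, 14 fell and 2 rose in Apc/Tgif tumours, and 11 fell and none rose between the tumours. Their summed level was 261406 to 400934 in normal colon, 39696 to 153017 in Apc tumours and 13457 to 37106 in Apc/Tgif tumours, with no marker at 0 throughout a group. Over all genes, 25.2%, 25.5% and 8.76% were called lower in these comparisons and 23.9%, 24.8% and 7.88% higher. Erythroid genes were examined because red cells also carry Car1 and Car2. Of 7 tested, which share Slc4a1 with the transporter list, 4 rose and none fell in Apc tumours over normal colon. In Apc/Tgif tumours 4 rose and 1 (Epor) fell, against the shares of all genes given above. Between the tumours none of the 7 passed in limma (smallest adjusted p = 0.307, none with an unadjusted p under 0.05), with a median of -0.76. Their summed level was 758 to 23838 in normal colon, 7262 to 58469.5 in Apc tumours and 3726 to 32740 in Apc/Tgif tumours. The part of these cell types in the carbonic anhydrase differences was not tested.

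The effect of each contrast did not pass a test of difference between the sexes for any member. Of 27 such tests none passed in limma, and 7 had an unadjusted p under 0.05. The backgrounds were 0.0108% of all genes for Apc tumours over normal colon, 3.40% for Apc/Tgif tumours over normal colon and 23.6% between the tumours. The smallest adjusted p, 0.0987, belonged to Car8 between the tumours, where males minus females was -1.77 (SE 0.76). Car8 in Apc tumours had 83.2, 157 and 468 normalized counts in females and 187, 252, 722 and 741 in males, while Apc/Tgif females had 81.2, 102 and 144 and males 50.7, 54.8, 62.6 and 118. With library quality weights 5 of the 27 tests passed, and leaving out Apc tumour replicate 1, Apc tumour replicate 5 or Apc/Tgif tumour replicate 3 gave 4, 2 and 1.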

How the data were processed

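RNA of colon and colon tumours was sequenced as poly-A selected libraries and read from one end over 75 bases, as the labels' protocols state. The authors deposited 1 table of normalized counts, here treated as a signal. The submitters' processing notes list Salmon and DESeq2 with GRCm38 and mm10, while versions, annotation and use of strand are not given in sources used here. Low values were mostly multiples of 1 step per library (0.748 to 1.46), and 83.2% to 87.0% lay within 0.1 of a whole step. That share is too low to recover reads, which left count models out. Divided by the step, totals correspond to about 28380000 to 48860000 counts, so a value near 10 stands for roughly 10 reads.

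Genes with at least 10 normalized counts in 5 libraries (18445) entered 1 fit of log2(normalized count + 1) by limma 3.58.1 (R 4.3.3), with terms for group and sex, an intensity trend and robust moderation. The design allowed for a count test, and this test of log values was its stated substitute. P-values were adjusted by Benjamini-Hochberg over all genes tested, threshold 0.05, two-sided. All adjusted p-values of single genes are limma values. Because of the added 1, fold changes of low genes are understated, and intervals cover 95%. Relations between members used exact permutation of 5040 orders in Python 3.11.15. The fits were tested on simulated data. No 2 libraries were copies of each other (highest r of log2 values 0.985). Overlapping genes and near-identical copies could share reads. Named genes are the 9 members, up to 4 genes with the smallest p in each list, and the 2 genes most like each member with a mean of at least 100. Outside this rule, Car15 and Slc26a3 in Apc tumours and the targeted Tgif1 and Tgif2 are named. So are markers (Hoxb13, Hoxa11, Hoxd13, Hoxc10, Adipoq, Cfd, Lep, Pck1, Myh4, Epor), chosen after their values were seen. Members and lists were chosen with earlier results of these data known, and the motifs after the values were seen. Alternatives covered pseudocount, filter, scaling, covariates, moderation, weights, each sex and each library left out.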

Additional observations from a re-analysis of the deposited data

Results flagged for a closer look

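Of 27 sets of values (9 genes in 3 groups), 5 held 1 library far from the others by Dixon's criterion. Chance flags about 1 in 20 sets of normally distributed values. The criterion was applied to untransformed counts, and all 5 flagged values were the highest of their set, so that rate may not hold here. Car3 passed it narrowly (0.5685 against a critical value of 0.568). Car1 stood at 54574 normalized counts in wild-type replicate 3, where the other wild-type libraries had 19555 to 27124. Car2 stood at 55068 in wild-type replicate 1, against 37301 to 41889. Car1 and Car3 were both flagged in Apc/Tgif tumour replicate 4, at 29223 and 118.5, next highest values being 12378 and 61.9. Car4 stood at 720 (719.57) in Apc/Tgif tumour replicate 1, against 47.0 to 323 in the other six. Without these libraries the calls of Car1, Car2, Car3 and Car4 were the same as with them, except that of Car1 in Apc tumours over normal colon, which was lost without wild-type replicate 3 (-1.41, limma adjusted p = 0.121), without wild-type replicate 1 (-1.65, adjusted p = 0.085) and without Apc/Tgif tumour replicate 1 (-1.71, adjusted p = 0.0547).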

How the results depend on the processing

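No paired analysis was possible because the labels give no replicate numbers shared between groups. The number of members called in either direction was 5, 7 and 3, all lower, in Apc tumours over normal colon, Apc/Tgif tumours over normal colon and Apc/Tgif over Apc tumours. In males alone the first 2 were 2 and 4, all lower. Scaled to pan-epithelial genes the third was 5, of which 3 were lower and 2 higher (Car2, 0.80, and Car7, 1.19). That scaling rests on a list in which some genes rise strongly in tumours. Leaving out single libraries gave 4 to 5, 7 to 7 and 3 to 5 called in either direction, the last 5 without Apc tumour replicate 4, with 3 lower and 2 higher. Tests of sex differences called 0 members, 5 with library quality weights, and 0 to 4 when single libraries were left out. Among the relations between members 0 of 72 passed, 1 with equal library totals and 0 in each of the other settings. Uncalled differences changed sign in Apc tumours over normal colon, with no call under those settings. For Car9 they were 0.10 with equal library totals and 0.19 in males alone. For Car8 they were -0.22 scaled to pan-epithelial genes, -0.32 with the distal colon covariate and -0.57 in females alone, and for Car12 -0.30, -1.11 and -0.093 in the same order. Leaving out single libraries gave -0.019 to 0.55 for Car8, -0.27 to 0.092 for Car9 and -0.41 to 0.44 for Car12. Between the tumours Car12 was 0.31 with Hoxb13 as a covariate. Of 897 values of single members under alternatives, 837 kept direction and side of the threshold, 28 lost the call, 15 gained it and 17 changed sign. Depth limits Car7 and Car3 in tumours, where 10 normalized counts stand for roughly 10 reads.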
